A study of Mus musculus with 8 samples.

Results

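Collagen genes were taken as every probe set of the Affymetrix Mouse Gene 2.1 array that the platform annotation gives a single gene symbol made of Col, a chain family number, the letter a and a chain number. This gave 47 probe sets for 44 of the 22180 genes that had a probe set of their own. Col1a2, Col5a1 and Col6a1 had 2 probe sets each, and the one with the higher mean over all arrays stands for the gene unless stated. By class, 11 genes encode fibrillar chains, 9 basement membrane chains, 6 beaded filament chains, 9 fibril-associated chains, 3 network chains, 4 transmembrane chains and 2 are unclassified.

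Collagens are secreted proteins built from 3 chains wound into a triple helix, which requires hydroxylation of prolines and lysines inside the cell. Fibroblasts and related mesenchymal cells are the main source of fibrillar collagens I, III and V and of beaded filament collagen VI, whereas collagen IV forms the sheet-like scaffold of basement membranes in nearly all tissues. In the early embryo, collagen IV is one of the first basement membrane proteins made, and the primitive endoderm secretes it in quantity.

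The series holds 8 arrays in 4 groups of 2, all from wild type C57BL/6J mice. FGF-ESC are a pluripotent line grown in KODMEM with 20% KSR (a serum replacement) and FGF2 on MEF, the feeder layer of mouse embryonic fibroblasts. EpiSC, the primed pluripotent line, had the same medium, growth factor and feeders. ESC were grown in DMEM with 15% FCS, 2i and LIF and without MEF, and ICM is uncultured inner cell mass, isolated by immunosurgery from E3.5 blastocysts. All 3 lines are labelled as derived from E3.5 embryos, and separate lines, cultures or embryo pools are not named in the labels for the paired arrays. The medium and the feeders both differ between ESC and the other lines, and a different RNA column kit was used for ICM, so these cannot be told apart from the groups.

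Values are the deposited log2 intensities. Genes brighter than 4.24, the overall median, on 2 or more arrays were tested, and a gene passed where limma's adjusted p was below 0.05 and its log2 fold change reached 1 in either direction. Array medians lay between 4.16 and 4.28. The 8 markers of pluripotent cells averaged 7.68 to 8.65 on every array and none lay at or below the median on both arrays of any group. The 24 measured fibroblast markers, which include no collagen, averaged 8.49 and 7.42 on FGF-ESC replicates 1 and 2, 5.26 and 5.49 in EpiSC, 4.54 and 4.57 in ESC, and 4.57 and 4.73 in ICM. On both arrays of the group, 0 of these 24 lay at or below the median in FGF-ESC, 3 in EpiSC, 9 in ESC and 8 in ICM. In RNA from bulk samples, fewer cells of a type and less RNA per cell cannot be told apart.

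The promoters of 3 genes among those highest in FGF-ESC are shown for reference, with no value here that bears on their activity. Col1a2 had the largest fold change among the collagens on its brighter probe set. Col3a1 is the partner of collagen I in soft tissue fibrils, and Col8a1 is the network chain. Each promoter shown is the 250 bases before the transcript start in RefSeq on GRCm38.p6, on the strand of the gene. Capitals mark matches to 3 promoter motifs, the box spelled CCAAT, the TATA-type box TATAAA and the GC box GGGCGG, searched on both strands, and no matches overlap in these windows.
Col1a2, chr6:4505368-4505617, plus strand: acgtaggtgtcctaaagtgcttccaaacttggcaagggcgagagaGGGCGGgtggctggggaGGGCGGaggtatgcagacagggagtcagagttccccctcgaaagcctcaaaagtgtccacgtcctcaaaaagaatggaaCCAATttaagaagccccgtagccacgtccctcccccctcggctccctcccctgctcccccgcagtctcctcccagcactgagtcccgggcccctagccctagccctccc
Col3a1, chr1:45311288-45311537, plus strand: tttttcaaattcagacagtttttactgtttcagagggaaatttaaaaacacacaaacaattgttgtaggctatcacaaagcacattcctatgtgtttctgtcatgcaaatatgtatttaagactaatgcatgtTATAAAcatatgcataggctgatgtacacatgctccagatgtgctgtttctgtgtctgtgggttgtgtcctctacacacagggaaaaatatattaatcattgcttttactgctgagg
Col8a1, chr16:57754738-57754987, minus strand: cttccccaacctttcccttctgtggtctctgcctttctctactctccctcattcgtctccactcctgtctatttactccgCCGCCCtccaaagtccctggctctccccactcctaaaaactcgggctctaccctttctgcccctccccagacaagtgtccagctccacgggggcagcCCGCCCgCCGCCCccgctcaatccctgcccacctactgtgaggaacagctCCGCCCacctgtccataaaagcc
Col1a2 carries a CCAAT match 109 bases before the start and GC boxes at 205 and 188 bases. Col3a1 carries a TATAAA match at 117 bases, and Col8a1 has 4 GC boxes, all on the reverse strand. The 3 windows thus share no motif that all of them hold. Over the 38 windows found for 35 of the 44 collagen genes, 13 (34.2%) held CCAAT, 5 (13.2%) TATAAA and 22 (57.9%) GGGCGG. Over all 32851 promoter windows of the same length the shares were 33.8%, 12.4% and 32.7%.

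Position in the genome is a further feature the gene names do not give. In RefSeq, 8 pairs of collagen genes are direct neighbours, namely Col3a1 with Col5a2, Col6a2 with Col6a1, Col4a1 with Col4a2, Col4a4 with Col4a3, Col4a6 with Col4a5, Col9a1 with Col19a1, Col6a6 with Col6a5 and Col6a5 with Col6a4. Col4a1 and Col4a2 lie head to head, and their RefSeq transcripts overlap by 22 bases at chr8:11312805-11312826 (GRCm38.p6, plus strand). The overlap is shown because both genes start within it. Motifs are not marked in this stretch, and it holds a GGGCGG match.
Col4a1 and Col4a2, start overlap: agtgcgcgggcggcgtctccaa

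**Figure D1:**
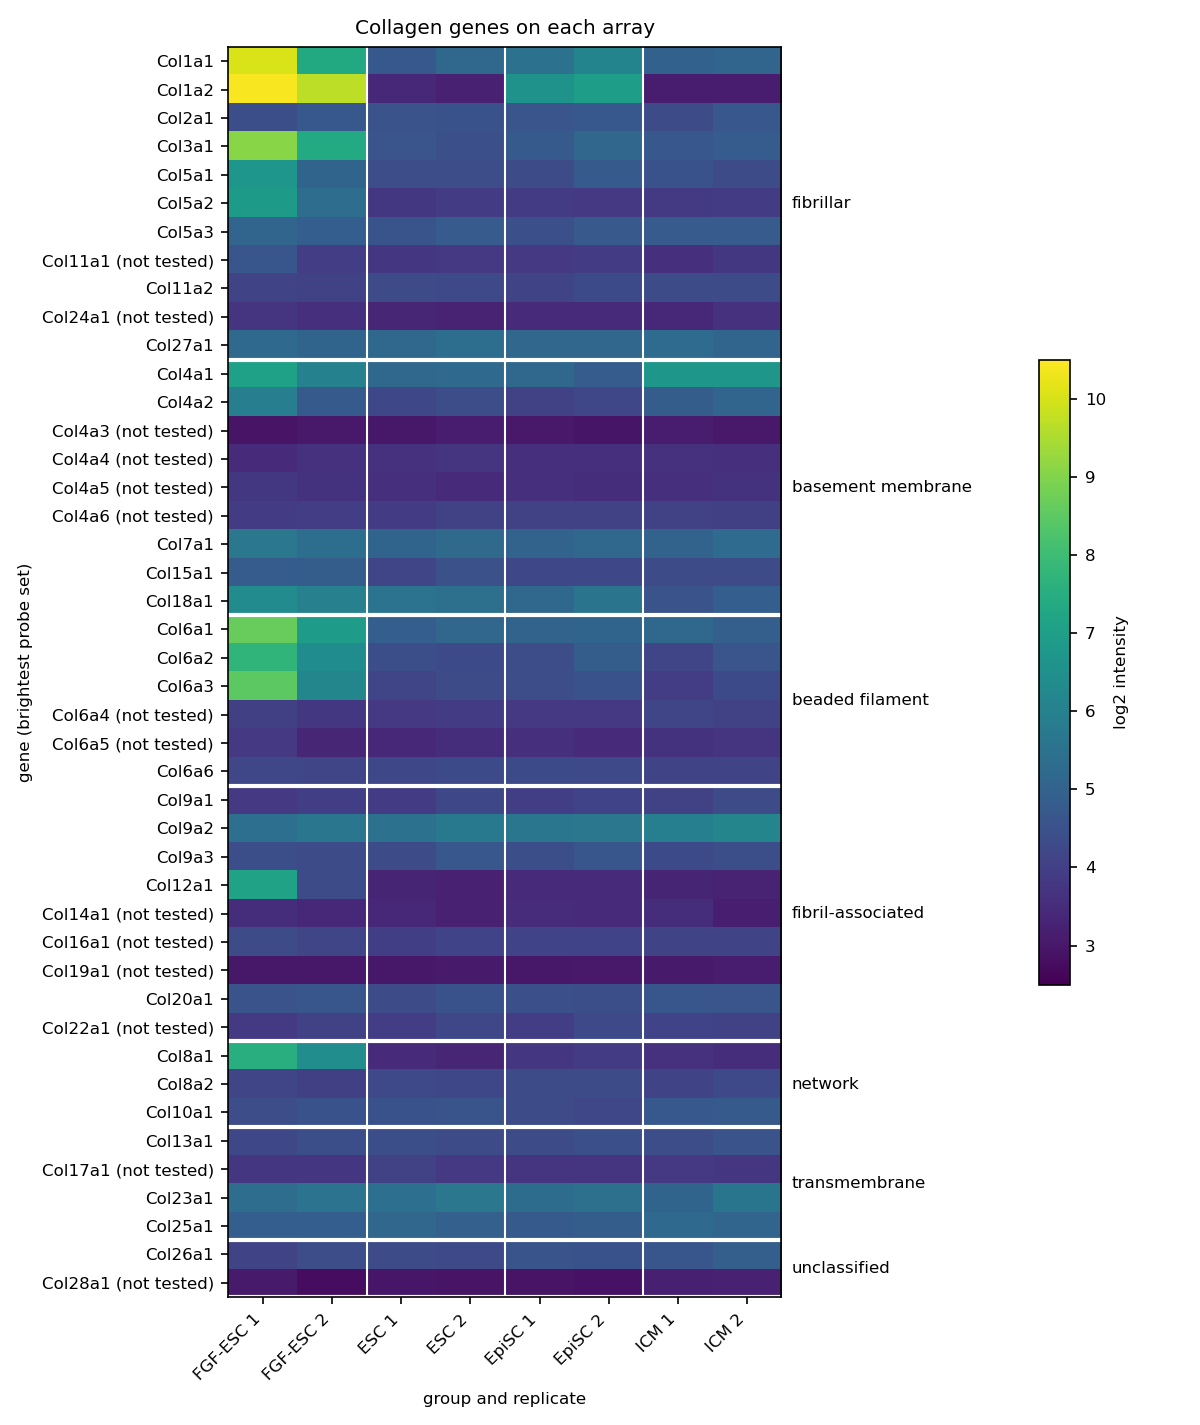
Log2 intensity of the 44 collagen genes (rows, grouped by class) on the 8 arrays (columns, 2 per group), 1 probe set per gene. The brightest cells lie in the FGF-ESC columns for Col1a1, Col1a2, Col3a1 and the Col6a1, Col6a2 and Col6a3 chains, Col4a1 is also bright in ICM, and Col1a2 is at 6.58 and 6.95 in EpiSC.

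Between FGF-ESC and ESC, the question is how lines derived with FGF2 differ from naive embryonic stem cells. Of the 30 collagen genes tested, 10 were higher in FGF-ESC (33.3%) and 0 were lower, with limma counts of 14 and 0 at an unadjusted p below 0.05. Over all 13597 genes tested, 5.27% were higher and 0.934% lower. The median difference was 0.33 over the tested collagens and -0.06 over all genes. The 10 genes were Col1a1, Col1a2, Col3a1 and Col5a2 of the fibrillar class, Col6a1, Col6a2 and Col6a3 of the beaded filament, Col8a1 of the network, Col12a1 of the fibril-associated and Col4a1 of the basement membrane class. With the fit restricted to the 2 groups compared, 4 collagens passed, and without ESC replicate 1 or ESC replicate 2 also 4. Of 22 tested fibroblast markers, 20 were higher in the same comparison, and their part in the collagen values was not tested.

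Against EpiSC, which share the medium and the feeders, 10 collagens were higher in FGF-ESC (33.3%) and 0 lower, where 5.26% of all genes were higher and 2.02% lower. At an unadjusted p below 0.05 the limma counts were 16 and 1, and without EpiSC replicate 2 the number past the threshold was 6. Against ICM, the tissue of origin, 11 were higher (36.7%) and 0 lower, with 12 and 5 at an unadjusted p below 0.05, beside 9.57% and 5.22% of all genes. These 3 comparisons use the same pair of FGF-ESC arrays, so their counts are not independent. Col5a2, Col8a1 and Col12a1 exceeded the median of all values in FGF-ESC alone, so they could enter the test only by being high there. Without these 3, the collagens higher in FGF-ESC numbered 7 of 27 (25.9%) in the ESC comparison, and 8 of 27 (29.6%) in each of the EpiSC and ICM comparisons. For each collagen that passed, the arrays of the groups compared did not overlap, which with 2 arrays per group adds little to the call. Against ESC, Col4a2, Col5a1, Col5a3, Col6a6, Col7a1, Col8a2, Col11a2, Col15a1, Col18a1, Col20a1 and Col25a1 did not overlap either, and none of them passed. Their differences could be small, as for Col11a2 (-0.21) and Col20a1 (0.14). The share of all genes without overlap was not counted.

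**Figure D2:**
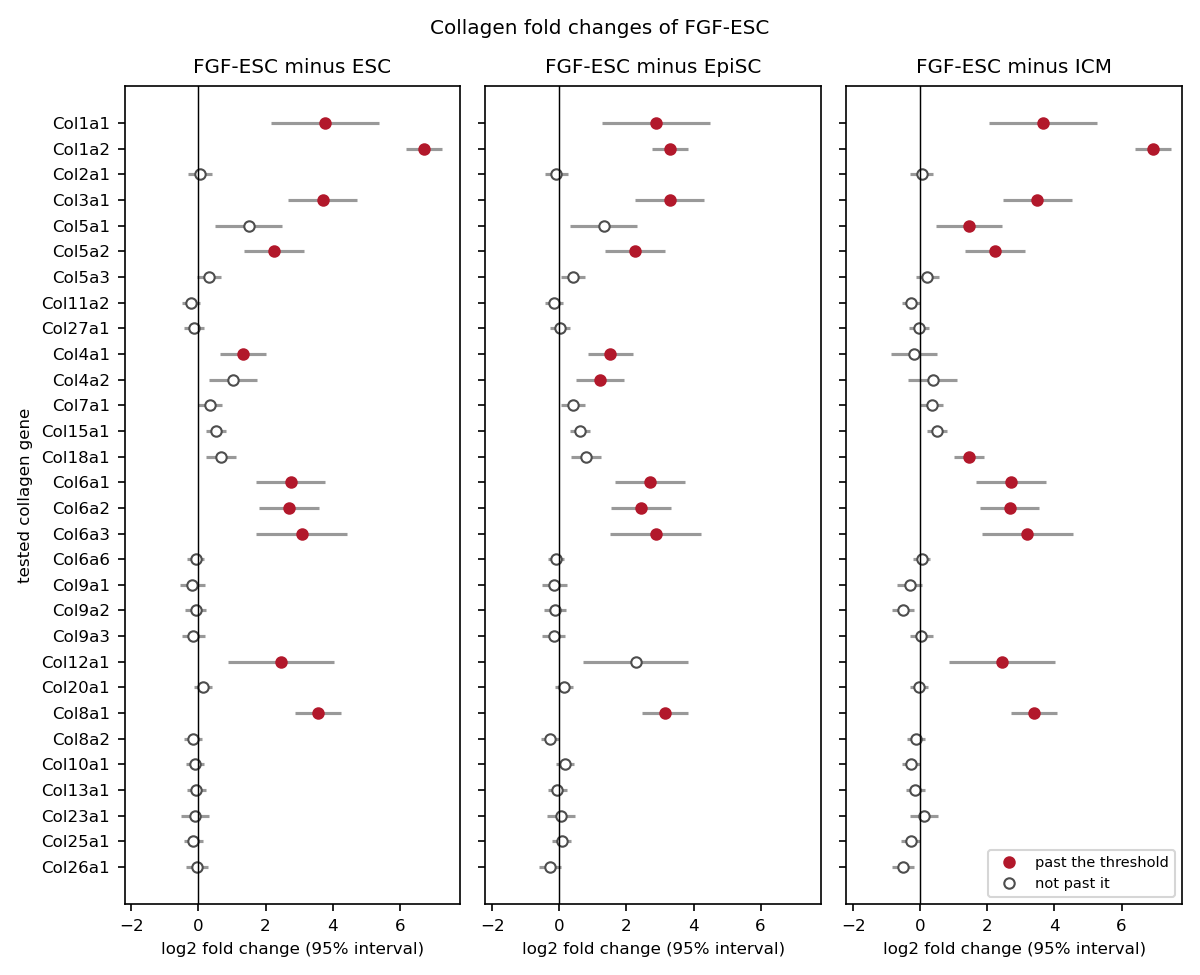
Log2 difference (FGF-ESC minus ESC, EpiSC or ICM, 1 panel each) of the 30 tested collagen genes with limma's 95% interval, red where the gene passed the threshold and with classes in order. Col1a2 lies farthest to the right against ESC (6.72) and ICM (6.93), while Col4a1 lies to the right against ESC and EpiSC and at -0.18 against ICM.

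Among the fibrillar chains, Col1a2 had, on its brighter probe set, the largest differences from ESC and ICM of any collagen. Of the 9 tested chains, 5 did not pass against ESC. Col1a2, the alpha-2 chain of collagen I, stood at 10.42 and 9.69 on the FGF-ESC arrays (replicates 1 and 2), against 3.43 and 3.23 for ESC, 6.58 and 6.95 for EpiSC and 3.13 and 3.11 for ICM. On this brighter probe set FGF-ESC were the highest, EpiSC intermediate, and ESC and ICM lay below the median of all values. The FGF-ESC level exceeded that of ESC by 6.72 ± 0.23 on the log2 scale (limma SE, n = 2 per group; adjusted p = 5.43e-06). It exceeded EpiSC by 3.29 ± 0.23 (limma adjusted p = 9.34e-05) and ICM by 6.93 ± 0.23 (limma adjusted p = 5.9e-07).

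Col1a1, the alpha-1 chain that makes up most of each collagen I molecule, stood at 10.06 and 7.34 on the FGF-ESC arrays, against 4.69 and 5.16 for ESC, 5.52 and 6.11 for EpiSC and 4.98 and 5.12 for ICM. Both FGF-ESC arrays lay above the other 6, but they also lay far from each other (SD 1.92, against 0.10 to 0.42 in the other groups). The differences were 3.78 ± 0.70 against ESC (limma adjusted p = 0.0113), 2.89 ± 0.70 against EpiSC (limma adjusted p = 0.0237) and 3.66 ± 0.70 against ICM (limma adjusted p = 0.00452). Without FGF-ESC replicate 1 they were 2.42, 1.53 and 2.30. The call against ESC was lost without either ESC array (limma adjusted p of 0.104 and 0.0719), and that against EpiSC without either EpiSC array (0.146 and 0.0787).

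Col3a1, the chain of collagen III, stood at 9.08 and 7.39 on the FGF-ESC arrays, against 4.61 and 4.45 for ESC, 4.75 and 5.14 for EpiSC and 4.67 and 4.82 for ICM. The 6 arrays of the other groups, from 4.45 to 5.14, all lay under both FGF-ESC arrays. The differences were 3.71 ± 0.45 against ESC (limma adjusted p = 0.00177), 3.28 ± 0.45 against EpiSC (limma adjusted p = 0.00182) and 3.49 ± 0.45 against ICM (limma adjusted p = 0.000544).

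Collagen V joins collagens I and III in the same fibrils and limits their diameter. Its alpha-2 chain gene Col5a2, the genomic neighbour of Col3a1, stood at 6.87 and 5.37 in FGF-ESC and between 3.78 and 3.94 on the other 6 arrays. It was higher in FGF-ESC by 2.26 ± 0.39 against ESC (limma adjusted p = 0.00805), 2.25 ± 0.39 against EpiSC (limma adjusted p = 0.00535) and 2.23 ± 0.39 against ICM (limma adjusted p = 0.00264). The call against ESC was lost without either ESC array (limma adjusted p of 0.0815 and 0.0629), and without FGF-ESC replicate 1 the difference from ICM was 1.49. Col5a1, the partner chain, stood at 6.70 and 5.06 on the FGF-ESC arrays, against 4.38 and 4.39 for ESC, 4.35 and 4.77 for EpiSC and 4.53 and 4.32 for ICM. It passed against ICM (1.46 ± 0.43, limma adjusted p = 0.03) and not against ESC (1.5 ± 0.43, limma adjusted p = 0.0524) or EpiSC (1.32, limma adjusted p = 0.0668). That call was lost without either ESC array (limma adjusted p = 0.0566), without either ICM array (0.0894 and 0.128) and without FGF-ESC replicate 1, where the difference was 0.64.

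The other fibrillar chains did not pass in any of the 6 comparisons. Col5a3, the third collagen V chain, ran from 4.44 to 5.12, Col2a1, the main chain of cartilage collagen, from 4.37 to 4.72, and Col27a1 from 5.09 to 5.38. Col11a2, a cartilage collagen XI chain, lay between 4.04 and 4.37. Col11a1 and Col24a1 were not tested, and Col11a1 exceeded the median on FGF-ESC replicate 1 alone, at 4.63. The fibrillar differences were thus those of collagens I, III and V, whereas the cartilage chains Col2a1 and Col11a2 were at or below 4.72 on every array.

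Collagen VI forms beaded filaments around cells from 3 main chains, and the genes of all 3 were higher in FGF-ESC in each comparison. Col6a1 stood at 8.63 and 6.89 in FGF-ESC and between 4.9 and 5.2 on the other arrays. Its neighbour Col6a2 stood at 7.73 and 6.38 in FGF-ESC, against 4.17 to 4.87 elsewhere. Col6a3, on another chromosome, stood at 8.49 and 6.16 against 3.97 to 4.52 elsewhere. For every chain the lower FGF-ESC array was above all 6 arrays of the other groups.

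Col6a1 was higher in FGF-ESC by 2.75 ± 0.45 against ESC (limma adjusted p = 0.00696), 2.71 against EpiSC (limma adjusted p = 0.0046) and 2.70 against ICM (limma adjusted p = 0.00218). For Col6a2 the differences were 2.70 ± 0.39 (limma adjusted p = 0.00384), 2.43 (limma adjusted p = 0.00379) and 2.66 (limma adjusted p = 0.00107) in the same order. For Col6a3 they were 3.08 ± 0.59 (limma adjusted p = 0.0129), 2.87 (limma adjusted p = 0.0119) and 3.19 (limma adjusted p = 0.00375). On these probe sets the size was thus close to the same against each of the other groups. The second Col6a1 probe set, given below, gave 5.53, 4.53 and 5.71 in the same order. Without FGF-ESC replicate 1 the Col6a3 differences were 1.92, 1.71 and 2.03. The calls against ESC were lost without either ESC array for Col6a1 (limma adjusted p of 0.0747 and 0.0557) and Col6a3 (0.105 and 0.0859), and that of Col6a3 against EpiSC without either EpiSC array (0.081 and 0.0643). The genes of the alternative chains behaved otherwise: Col6a6 lay between 4.13 and 4.30, with no call, and Col6a4 and Col6a5 were at or below 4.16 and were not tested.

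Col8a1, whose product forms hexagonal networks and is known from vessel walls and the cornea, stood at 7.54 and 6.44 in FGF-ESC and between 3.37 and 3.93 on all other arrays, below the median. The differences were 3.58 ± 0.30 against ESC (limma adjusted p = 0.00032), 3.15 ± 0.30 against EpiSC (limma adjusted p = 0.000349) and 3.40 ± 0.30 against ICM (limma adjusted p = 8.11e-05). Col8a2, its partner chain, had levels of 4.01 to 4.37 and was called in no comparison. Col10a1, the growth plate network collagen, ran from 4.22 to 4.76.

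Col12a1, which decorates the surface of collagen I fibrils, stood at 7.10 on FGF-ESC replicate 1 and 4.37 on replicate 2, and between 3.24 and 3.47 elsewhere. It passed against ESC (2.46 ± 0.68, limma adjusted p = 0.046) and ICM (2.44 ± 0.68, limma adjusted p = 0.0238), and not against EpiSC (2.28 ± 0.68, limma adjusted p = 0.0501). Replicate 1 decides its size: without it the differences from ESC and ICM were 1.09 and 1.07, and without replicate 2 they were 3.83 and 3.81. The call against ESC was also lost without any 1 of the ESC, EpiSC or ICM arrays (limma adjusted p of 0.0756 to 0.199), and that against ICM without either ICM array (0.093 and 0.0963). Among the other fibril-associated chains, Col9a1 (3.81 to 4.35), Col9a2 (5.43 to 6.15), Col9a3 (4.29 to 4.69) and Col20a1 (4.37 to 4.64) were tested and not called. Col9a2, a chain of cartilage collagen IX, was highest in ICM, with FGF-ESC minus ICM at -0.52 (limma adjusted p = 0.0209), under the fold minimum. Col14a1, Col16a1, Col19a1 and Col22a1 were not tested.

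**Figure D3:**
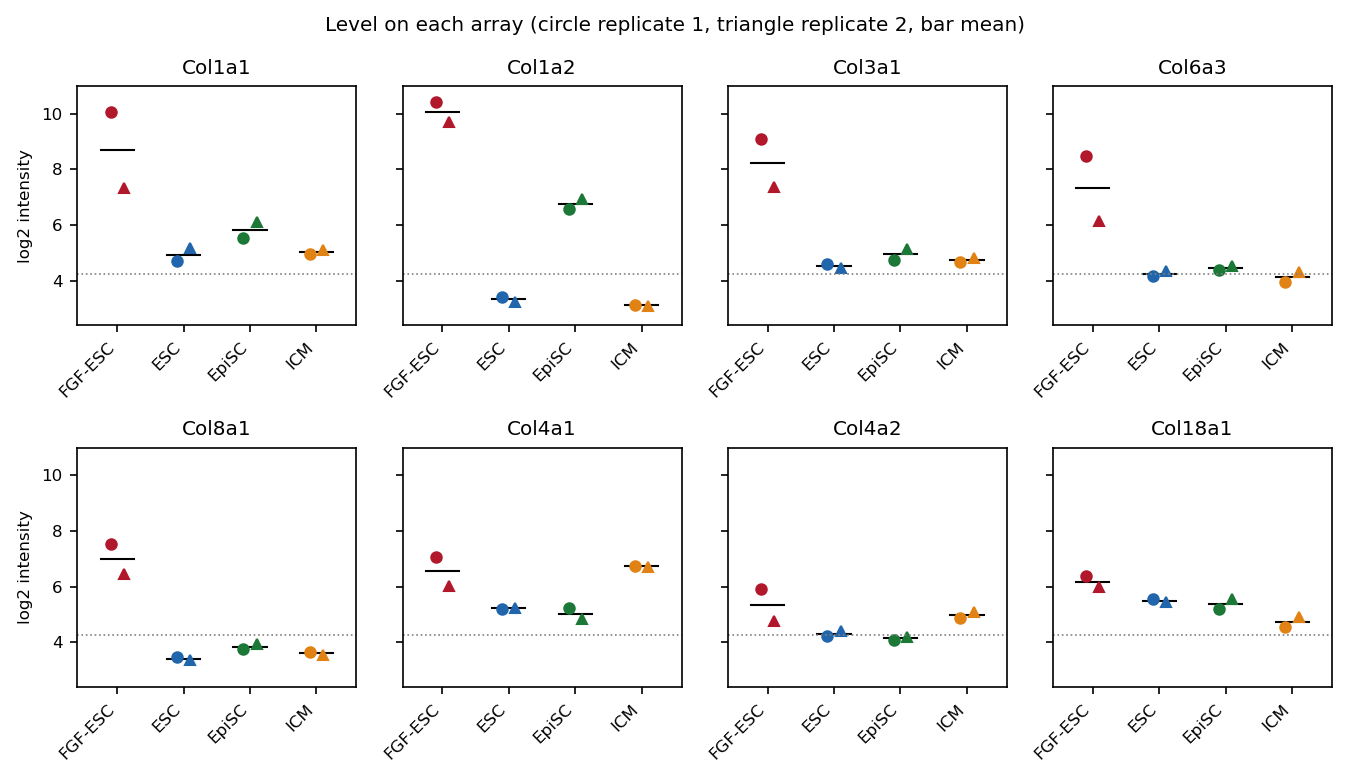
Log2 intensity of Col1a1, Col1a2, Col3a1, Col6a3, Col8a1, Col4a1, Col4a2 and Col18a1 (1 panel each) on the 8 arrays, with circles for replicate 1, triangles for replicate 2, bars for group means and a dotted line at the median of all values. FGF-ESC lie above the other groups in the panels of Col1a1, Col1a2, Col3a1, Col6a3 and Col8a1, while for Col4a1 the ICM arrays (6.73 and 6.72) lie between the 2 FGF-ESC arrays (7.07 and 6.02).

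Among the basement membrane collagens, Col4a1 and Col4a2 had another order of groups. Col4a1, which with Col4a2 forms the common collagen IV molecule, stood at 7.07 and 6.02 in FGF-ESC, 6.73 and 6.72 in ICM, 5.19 and 5.24 in ESC, and 5.22 and 4.83 in EpiSC. FGF-ESC and ICM overlapped and both lay above ESC and EpiSC. ICM exceeded ESC by 1.51 ± 0.30 (limma adjusted p = 0.0055) and EpiSC by 1.70 ± 0.30 (limma adjusted p = 0.00241), and both calls held without any 1 array. FGF-ESC exceeded ESC by 1.33 ± 0.30 (limma adjusted p = 0.0218) and EpiSC by 1.52 ± 0.30 (limma adjusted p = 0.00933). Without FGF-ESC replicate 1 these were 0.80 and 0.996, under the fold minimum. The call against ESC was also lost without either ESC array (limma adjusted p of 0.142 and 0.121), and that against EpiSC without EpiSC replicate 2 (0.0737). FGF-ESC minus ICM was -0.18 ± 0.30 (limma adjusted p = 0.674), with a 95% interval from -0.86 to 0.50.

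Col4a2, whose start overlaps that of Col4a1 as shown above, stood at 5.93 and 4.77 in FGF-ESC, 4.86 and 5.10 in ICM, 4.23 and 4.39 in ESC, and 4.07 and 4.20 in EpiSC. FGF-ESC and ICM again overlapped, and the ESC and EpiSC arrays were the lowest 4. It passed between FGF-ESC and EpiSC (1.21 ± 0.31, limma adjusted p = 0.0291) and not between FGF-ESC and ESC (1.04 ± 0.31, limma adjusted p = 0.0597). ESC minus ICM was -0.67 (limma adjusted p = 0.142) and EpiSC minus ICM -0.84 (limma adjusted p = 0.0652), neither past the threshold. FGF-ESC minus ICM was 0.37 ± 0.31, with a 95% interval from -0.35 to 1.09. The call against EpiSC was lost without FGF-ESC replicate 1, at 0.64, and without any 1 of the ESC or EpiSC arrays (limma adjusted p of 0.0604 to 0.153).

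The collagen IV levels of ICM stood beside the markers of primitive endoderm, the lineage that lines the inner cell mass. The 10 markers averaged 5.78 and 5.83 in ICM, 4.78 and 4.55 for FGF-ESC, 4.46 and 4.59 for EpiSC, and 4.01 and 4.10 for ESC. At or below the median on both arrays lay 2 of the 10 in ICM, 5 for FGF-ESC, 7 for ESC and 3 for EpiSC. Of the 8 tested, 5 were higher in ICM than in ESC and 5 than in EpiSC, where 5.57% and 6.8% of all genes were. In the other direction, 0 were higher in ESC and 1 in EpiSC than in ICM. Gata6, a defining factor of the lineage, was at 8.0 and 8.04 in ICM and between 3.44 and 4.51 on the other arrays, whereas Gata4 ran from 4.67 to 5.24 over all arrays. In FGF-ESC, 2 of the 8 tested were higher than in ESC, beside 5.27% of all genes, while Gata6 was at 3.81 and 3.44. Dab2 stood at 7.57 and 6.30 in FGF-ESC against 4.56 and 4.83 in ESC, and Pdgfra, which is also on the fibroblast list, at 8.18 and 6.68 against 4.07 and 4.19. The 8 markers of trophectoderm, the outer layer that immunosurgery removes, averaged 5.70 and 5.62 in ICM and between 4.67 and 5.02 on the other arrays. Of the 7 tested, 3 were higher in ICM than in ESC and 2 than in EpiSC, beside 5.57% and 6.8% of all genes. The part of cells of either kind in the collagen IV values was not tested.

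Col18a1, the basement membrane collagen that carries endostatin, stood at 6.37 and 5.97 on the FGF-ESC arrays, against 5.54 and 5.45 for ESC, 5.18 and 5.57 for EpiSC and 4.55 and 4.90 for ICM. In contrast to Col4a1, its lowest values were those of ICM. It was higher in FGF-ESC than in ICM by 1.44 ± 0.19 (limma adjusted p = 0.00073). The differences from ESC (0.67 ± 0.19, limma adjusted p = 0.0532) and EpiSC (0.80 ± 0.19, limma adjusted p = 0.0241) stayed under the fold minimum. Col15a1, a relative of Col18a1, stood at 4.83 and 4.86 in FGF-ESC and between 4.16 and 4.47 elsewhere, and reached an adjusted p of 0.0331 against ESC in limma with a difference of 0.52, under the fold minimum. Col7a1, the anchoring fibril collagen of skin, ran from 5.03 to 5.66 with no call. The tissue-restricted collagen IV chains Col4a3, Col4a4, Col4a5 and Col4a6 lay between 2.93 and 4.07 on all arrays and were not tested.

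The transmembrane collagens Col13a1 (4.24 to 4.54), Col23a1 (5.09 to 5.67) and Col25a1 (4.78 to 5.23) had no call in any comparison, and Col17a1 was not tested (3.71 to 4.04). Col26a1 ran from 4.15 to 4.93 with its highest values in ICM, with differences from ICM of -0.52 in FGF-ESC (limma adjusted p = 0.0217) and -0.48 in ESC (limma adjusted p = 0.0322), under the fold minimum. Col28a1 was at most 3.22. Of the 44 genes, 24 exceeded the overall median on both FGF-ESC arrays, 22 did so for EpiSC, 21 for ICM and 20 for ESC, and 15 did so on all 8 arrays. The 14 untested genes had values from 2.77 to 4.63.

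In the 3 comparisons without FGF-ESC, 1 or 2 collagens passed. Between ESC and EpiSC, 0 were higher in ESC and 1 was lower (3.33%), with limma counts of 1 and 1 at an unadjusted p below 0.05, beside 3.5% and 3.86% of all genes. Between ESC and ICM the counts were 0 higher and 1 lower, with 1 and 3 at an unadjusted p below 0.05, beside 5.82% and 5.57%. Between EpiSC and ICM, 1 was higher and 1 lower, with 2 and 5 at an unadjusted p below 0.05, beside 8.48% and 6.8% of all genes. The lower gene against ICM was Col4a1 in both comparisons, and the other calls were those of Col1a2, which was lower in ESC than in EpiSC by 3.43 ± 0.23 (limma adjusted p = 4.96e-05) and higher in EpiSC than in ICM by 3.64 ± 0.23 (limma adjusted p = 1.1e-05). Col1a1 had values of 5.52 and 6.11 in EpiSC, above both ESC arrays, and its difference did not pass (-0.89 ± 0.70, limma adjusted p = 0.452).

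The Col1a2 calls between EpiSC and ESC and between EpiSC and ICM rest on 1 of the 2 probe sets of the gene. The second probe set stood at 9.0 and 7.18 on the FGF-ESC arrays, against 4.71 and 4.50 for ESC, 5.07 and 4.98 for EpiSC and 4.27 and 4.39 for ICM. With it, FGF-ESC still exceeded ESC by 3.49 ± 0.47 (limma adjusted p = 0.0029), EpiSC by 3.06 (limma adjusted p = 0.00306) and ICM by 3.76 (limma adjusted p = 0.000477). The difference between ESC and EpiSC was -0.43 ± 0.47 (limma adjusted p = 0.605) and that between EpiSC and ICM 0.70 (limma adjusted p = 0.284), both short of the threshold. On this probe set EpiSC lay nearer to ESC and ICM than to FGF-ESC. On the brighter one the difference of EpiSC from FGF-ESC (3.29) was about as large as that from ESC (3.43). The second probe set also put the difference of FGF-ESC from ESC (3.49) under those of Col1a1 (3.78), Col3a1 (3.71) and Col8a1 (3.58). Its ESC and ICM arrays lay above the median of all values.

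For Col6a1 the second probe set, at 9.33 and 8.08 on the FGF-ESC arrays, against 3.22 and 3.14 for ESC, 3.94 and 4.41 for EpiSC and 2.97 and 3.02 for ICM, gave larger differences than the first. FGF-ESC exceeded ESC by 5.53 ± 0.35 (limma adjusted p = 8.17e-05), EpiSC by 4.53 (limma adjusted p = 0.000126) and ICM by 5.71 (limma adjusted p = 1.35e-05). It also put EpiSC above ICM by 1.18 ± 0.35 (limma adjusted p = 0.0278), a call the first probe set did not give. The second Col5a1 probe set stayed between 4.38 and 4.70 on all arrays and passed in no comparison. For all 3 genes with 2 probe sets, both the size of the differences and at least 1 call depended on the probe set.

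**Figure D4:**
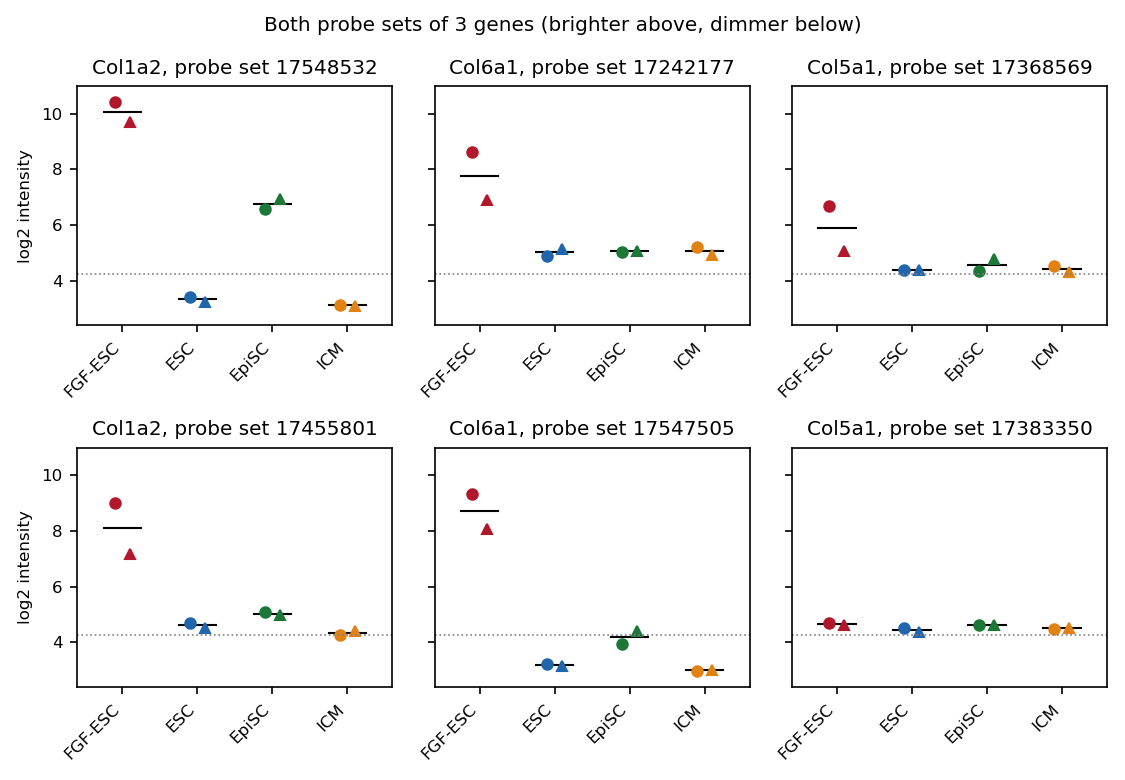
Log2 intensity of both probe sets of Col1a2, Col6a1 and Col5a1 on the 8 arrays. Both probe sets of Col1a2 and of Col6a1 place FGF-ESC highest, only the brighter Col1a2 probe set places EpiSC (6.58 and 6.95) far from ESC, and the second Col5a1 probe set is flat between 4.38 and 4.70.

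These genes also separated the 2 FGF-ESC arrays. Replicate 1 exceeded replicate 2 for all 10 collagens called against ESC, by a median of 1.6 on the log2 scale, from 0.73 for Col1a2 to 2.73 for Col12a1, and by at least 1 for 9 of them. Of the 30 tested collagens 11 were higher by at least 1 in replicate 1 and 0 in replicate 2. In ESC, EpiSC and ICM, 0 of the 30 differed that much between replicates. Over all 13597 genes the FGF-ESC median was -0.02, with 364 genes higher by at least 1 in replicate 1 and 31 in replicate 2. The 10 called collagens were picked from these same FGF-ESC arrays, and Col5a2, Col8a1 and Col12a1 entered the test only through them. Their gap is therefore no independent comparison with all genes.

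Between the FGF-ESC replicates and between FGF-ESC and ESC, the tested fibroblast markers differed in the same direction as the collagens called against ESC. The other 20 of the 30 tested collagens were not called there. All 22 fibroblast markers tested were higher in FGF-ESC replicate 1 than in replicate 2, by a median of 1.07 (0.32 to 1.89), and 12 by at least 1. Against ESC, 20 of these 22 passed as higher in FGF-ESC, with 17 against EpiSC and 20 against ICM, beside 5.27%, 5.26% and 9.57% of all genes. In limma 0 were lower in these 3 comparisons, also 0 at an unadjusted p below 0.05, where 22, 21 and 21 were higher. Outside FGF-ESC, Lum, Postn and Mmp3 exceeded the median only on EpiSC replicate 2, and Prrx1 only on ICM replicate 2. These markers could therefore enter the test only by being high in FGF-ESC, and the counts include them. Dcn, which encodes the fibril-binding proteoglycan decorin, stood at 10.05 and 9.49 on the FGF-ESC arrays, against 3.0 and 3.23 for ESC, 4.28 and 5.24 for EpiSC and 3.04 and 3.52 for ICM, with FGF-ESC highest and EpiSC next as for Col1a2. Between EpiSC and ESC, 6 of the 22 were higher in EpiSC and 0 lower, beside 3.86% and 3.5% of all genes. At an unadjusted p below 0.05 the limma counts there were 12 and 0. FGF-ESC and EpiSC are both labelled as grown on fibroblast feeders, and the part of feeder RNA in the collagen values was not tested.

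**Figure D5:**
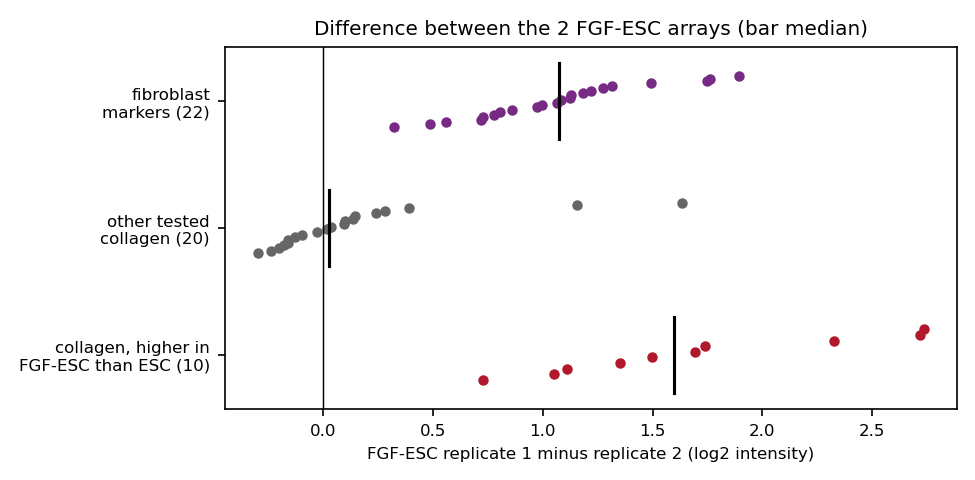
Difference of FGF-ESC replicate 1 minus replicate 2 in log2 intensity for the 10 collagen genes higher in FGF-ESC than in ESC, the 20 other tested collagens and 22 fibroblast markers (1 point per gene). The 10 called collagens lie between 0.73 and 2.73 and the fibroblast markers between 0.32 and 1.89, all above 0.

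Collagen chains need a set of enzymes and chaperones, of which 30 had a probe set and 24 were tested. Higher in FGF-ESC were 11 against ESC and 9 against EpiSC, with 0 lower in both, and 13 against ICM, with 2 lower. Over all genes 5.27%, 5.26% and 9.57% were higher and 0.934%, 2.02% and 5.22% lower in these comparisons. At an unadjusted p below 0.05 limma gave 16 higher and 1 lower against ESC, and 16 and 0 against EpiSC. The ESC comparison gave 7 calls without ESC replicate 1. Lox, the lysyl oxidase that crosslinks collagen outside the cell, stood at 7.61 and 6.93 in FGF-ESC and between 3.29 and 3.76 on the other arrays, so it too entered the test through FGF-ESC alone. Without it the processing genes higher in FGF-ESC were 10, 8 and 12 of 23. These counts still include Creb3l1, which outside FGF-ESC exceeded the median only on EpiSC replicate 2 (4.29). Creb3l1 could thus also enter the test only by being high in FGF-ESC. Lox was higher by 3.94 ± 0.20 against ESC (limma adjusted p = 3.09e-05), 3.59 against EpiSC (limma adjusted p = 4.56e-05) and 3.86 against ICM (limma adjusted p = 6.37e-06). Loxl3, of the same family, was higher by 3.64, 2.94 and 3.91.

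Plod2, P4ha1 and P4ha2, which encode enzymes that act on the chains inside the cell, were highest in ICM. Plod2, a lysyl hydroxylase, stood at 7.97 and 7.73 in ICM, 6.72 and 6.78 in FGF-ESC, 6.46 and 6.65 in EpiSC, and 5.36 and 5.40 in ESC. The prolyl 4-hydroxylase subunit gene P4ha1 stood at 7.42 and 7.51 in ICM, 7.21 and 6.97 for FGF-ESC, 5.53 and 5.87 for EpiSC, and 5.67 and 5.46 for ESC. ESC were lower than ICM by 2.47 ± 0.13 for Plod2 (ESC minus ICM -2.47, limma adjusted p = 7.83e-06), and the same difference was -1.90 for P4ha1 and -2.24 for P4ha2. EpiSC minus ICM was -1.29 for Plod2, -1.76 for P4ha1 and -1.93 for P4ha2. FGF-ESC were lower than ICM in Plod2 as well (-1.09, limma adjusted p = 0.00041), a difference that was under the fold minimum, at -0.97, without ICM replicate 1. For P4ha2 FGF-ESC minus ICM was -1.01 (limma adjusted p = 0.00405), close to the fold minimum. For P4ha1 it was -0.37 (limma adjusted p = 0.0998) and did not pass. Pcolce, which speeds the removal of the procollagen end, went the other way, from 4.51 and 3.81 in ICM to 8.16 and 8.13 in ESC and 9.24 and 8.65 in FGF-ESC. ESC exceeded ICM by 3.99 and FGF-ESC exceeded ICM by 4.79 ± 0.28.

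Between ESC and EpiSC 2 processing genes were higher in ESC, Pcolce (1.45) and Pcolce2 (1.59), and 2 were lower, Plod2 (-1.17) and Serpinh1. Serpinh1, the collagen chaperone HSP47, stood at 8.20 and 6.89 in FGF-ESC, 7.01 and 7.32 in EpiSC, 5.51 and 5.34 in ESC, and 5.88 and 6.37 in ICM. It was lower in ESC than in EpiSC (-1.74 ± 0.37, limma adjusted p = 0.0131), and this call was lost without any 1 of the 4 arrays compared (limma adjusted p up to 0.0958), as was that of Pcolce without either ESC array or EpiSC replicate 1. FGF-ESC and EpiSC overlapped in Serpinh1. Of 6 tested receptor and uptake genes, 2 were higher in FGF-ESC against ESC, 1 against EpiSC and 2 against ICM, with 0 lower. The shares of all genes are those given for the processing enzymes. Ddr1 went the other way against EpiSC (-0.73, limma adjusted p = 0.0487), under the fold minimum. Ddr2, a receptor tyrosine kinase for fibrillar collagen, stood at 7.49 and 6.17 in FGF-ESC, 5.63 and 6.31 in ICM, and between 3.75 and 3.85 in ESC and EpiSC. For Ddr2, FGF-ESC exceeded ESC by 3.01 ± 0.38 (limma adjusted p = 0.0022) and EpiSC by 3.07, and ESC minus ICM was -2.15. Its FGF-ESC minus ICM difference (0.86, limma adjusted p = 0.115) did not pass. Mrc2, an endocytic collagen receptor, was also higher in FGF-ESC than in ESC (1.41) and ICM (1.53), and both calls were lost without FGF-ESC replicate 1 (0.80 and 0.93), the former also without either ESC array.

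Collagen IV is joined in basement membranes by laminins, nidogens and perlecan, and of 12 such genes 11 were tested. They followed no single order of groups. Against ESC, FGF-ESC were higher in 2 and lower in 1, against EpiSC higher in 3 and lower in 0 (limma counts of 7 and 1 at an unadjusted p below 0.05), and against ICM higher in 6 and lower in 1, beside the shares of all genes given for the processing enzymes. ICM, with its high Col4a1, was higher than ESC in 2 of these genes and lower in 7, where 5.57% and 5.82% of all genes were. Lamb1, a laminin beta chain, shared the order of Col4a1 in part, at 8.13 and 8.28 in ICM, 8.40 and 7.36 for FGF-ESC and 5.35 and 5.36 in ESC, but its EpiSC values of 7.18 and 7.37 were high. Nid1, which links laminin to collagen IV, was low in EpiSC alone (5.15 and 5.37, against 7.79 to 9.14 elsewhere; FGF-ESC minus EpiSC 3.41 ± 0.27, limma adjusted p = 0.000143). Nid2, its relative, was lowest in ICM (4.84 and 5.25, against 7.03 to 8.14 elsewhere; ESC minus ICM 3.06, limma adjusted p = 2.36e-05). The call count against EpiSC fell from 3 to 1 without FGF-ESC replicate 1 or EpiSC replicate 1.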

How the data were processed

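The log2 values of 8 arrays, 2 per group, were used as the authors deposited them. Per the submitters' processing notes, Affymetrix Expression Console 1.3.1 produced them. Not given in the sources used here are how probes were summarised, the background correction and the genome build. The log base was read from the range of the values. NuGEN kits served for amplification and biotin labelling, per the labels' protocols. Of 41345 probe sets, 23521 had 1 gene in the platform annotation, 1814 several and 16010 none. The 13597 genes brighter than the overall median (4.24) on 2 or more arrays were tested.

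All 8 arrays were fitted together in limma 3.58.1 (R 4.3.3) with a mean per group and no further normalization, with 4 degrees of freedom left for the spread. Adjusted p-values are Benjamini-Hochberg's over all tested genes in each of 6 comparisons. Each SE pools the spread of the 4 groups, so it can understate that of FGF-ESC. The code was tested on simulated data. Since separate cultures are not named in the labels, a p-value reflects no more than how far these samples vary, possibly for technical reasons, and the number of arrays limits the precision. Collagens past the threshold are given with fold change and adjusted p, the others by level or count, and up to 4 genes with the smallest adjusted p for each other list. The members and lists were chosen with earlier results of these data known. Promoter sequences are RefSeq's on GRCm38.p6. Alternatives covered normalization, filters, probe sets, array weights, the groups fitted and arrays left out.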

Additional observations from a re-analysis of the deposited data

How the results depend on the processing

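Of 35 fold changes of named collagens, 20 passed under every alternative run and 0 changed direction. The other 15 lost their call under at least 1. The alternative without a fold minimum could not remove a call. With an FGF-ESC array left out, the spread of that group no longer entered the fit, so mainly the fold could fail there. Fitting the 2 compared groups alone left 4 collagens past the threshold for FGF-ESC against ESC and 5 against EpiSC. Without the fold minimum, the counts were 4 for ESC against ICM and 4 for EpiSC against ICM. Leaving out 1 array at a time gave 4 to 12 collagens for FGF-ESC against ESC (4 without either ESC array), 6 to 12 against EpiSC (6 without EpiSC replicate 2) and 9 to 11 against ICM, and 1, 1 and 2 in the comparisons of ESC with EpiSC, ESC with ICM and EpiSC with ICM. With the replicate number as a block, the counts were 10, 11 and 11 for FGF-ESC against ESC, EpiSC and ICM and 1, 1 and 2 for the rest. Deviations of same-numbered arrays correlated at -0.09 to 0.04 over 13597 genes. With 2 arrays per group this cannot decide whether same-numbered arrays share a batch, and the labels name no pairing. The 2-probe-set alternatives were chosen after seeing the data. With 2 arrays per group, signals near the median limit what could be seen, and no sample could be checked as an outlier.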
